A study of Mus musculus with 12 samples.

Results

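Ttr and 9 further genes of the choroid plexus, Folr1, Clic6, Kl, Otx2, Enpp2, Prlr, Aqp1, Slc4a5 and Sostdc1, were followed through 12 stranded total RNA-Seq libraries labelled as mouse somatosensory cortex. These 10 genes were taken by symbol out of the 24452 gene symbols in the count files, with the counts of all RefSeq transcripts of a symbol added up, and they were chosen by their levels in these same libraries, after earlier results had shown them to vary. Those levels and the fold changes made from them are therefore given as a description with no p for any of the 10 genes. Counts of genes past a threshold stand only beside the share of all tested genes, and nothing is read from them.

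All mice were males on the C57BL/6 background at postnatal day 7, and tissue was taken 8 hours after the last of the repeated intraperitoneal injections. The 4 groups, with 3 libraries each, were wild-type (WT) mice given saline, WT mice given ethanol, p53 knockout (KO) mice given saline and p53 KO mice given ethanol. The KO mice carried a germline disruption of Trp53 in every cell and came, like the WT mice, from a colony of heterozygotes, so the choroid plexus of a KO mouse lacked intact p53 as its cortex did. Both laser microdissection and a hole punch were used to collect the cortex, and the sources used here do not say which library came from which. Libraries are named here by group and by the number in their label. Each library is a separate sample in the labels, but whether each is a separate mouse is not stated there. The authors describe 3 RNA samples per group, sequenced out of a larger set of mice, without tying each library to a mouse of its own. The spread between libraries may in part be technical.

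The choroid plexus is a sheet of cuboidal epithelium over a core of blood vessels that hangs into the brain's ventricles and makes the cerebrospinal fluid. Its cells secrete transthyretin, the product of Ttr, in large amounts, and carry pumps, channels and bicarbonate transporters that move ions and water from blood to fluid. Somatosensory cortex holds no choroid plexus, but the tissue lies in the lateral ventricle below it, and it can come along when brain is cut. Ttr is a standard marker of the choroid plexus in brain RNA, and neurons of the cortex make little of it.

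The libraries held 719735 to 17066392 counts, and the smallest were KO ethanol library 12 and WT saline library 3 (1953154 counts). Levels are given as counts per 1000000 (CPM) of the library's scaled size, for which TMM factors of 0.564 to 1.23 were used. The intervals beside them are exact 95% binomial intervals, which cover counting error only. The Trp53 level ran from 3.67 to 26.2 CPM in the WT libraries given saline and from 7.23 to 20.0 CPM in those given ethanol. In the KO libraries it ran from 11.1 to 27.6 CPM with saline and from 23.4 to 28.7 CPM with ethanol. The KO libraries were thus not lower, and since the counts cover the whole transcript and not the disrupted part alone, they do not check the genotype.

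WT ethanol library 4 went against its cortex label. The summed level of 12 marker genes of cortical neurons was 646 CPM in it and 2175 to 4069 CPM in the other 11 libraries. Mef2c, a transcription factor of cortical excitatory neurons, stood at 148 CPM in it against 923 to 2419 CPM, and Lmo4, a transcriptional cofactor of the cortex, at 80.8 against 178 to 365 CPM. Markers of the thalamus, which lies below the cortex and borders a ventricle, summed to 1740 CPM in this library and to 48.5 to 216 CPM in the others. Slc17a6, the vesicular glutamate transporter of thalamic neurons, was at 463 CPM against 33.4 to 140, and Zic1, a transcription factor of the medial brain, at 406 CPM against 1.03 to 27.3. The spread of the levels and the counts and fold changes of each comparison that uses this library are given with and without it.

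To show the DNA next to these genes, stretches upstream of start sites were read from the RefSeq promoter sequences of build GRCm38.p6, which held 10 start sites of 5 of the 10 genes (Aqp1, Kl, Otx2, Prlr and Slc4a5). OTX2, the transcription factor encoded by Otx2, binds a core of the letters TAATCC, whose reverse complement is GGATTA. Either spelling occurred in the 250 bases upstream of 6.25% of all 32851 promoters, and in 1 of these 10, that of the Otx2 start site at base 48665109 of chromosome 14. That start belongs to the transcript NM_001286483, to which the deposited counts gave 63.8% of all Otx2 counts over the 12 libraries. The match lies inside Otx2. The 250 bases that hold it overlap an exon and an untranslated region of Otx2 in the GENCODE annotation. Whether the match itself lies in them was not checked. The match is printed here in capitals with 9 bases on either side. The 250 bases before the start of Kl and of Aqp1, both upstream of any annotated exon, are printed for comparison as members with 1 listed start site each and no match.
Otx2 (chr14:48665306-48665329, minus strand): gtgcccctcGGATTAtctcgttag
Kl (chr5:150952357-150952606, plus strand): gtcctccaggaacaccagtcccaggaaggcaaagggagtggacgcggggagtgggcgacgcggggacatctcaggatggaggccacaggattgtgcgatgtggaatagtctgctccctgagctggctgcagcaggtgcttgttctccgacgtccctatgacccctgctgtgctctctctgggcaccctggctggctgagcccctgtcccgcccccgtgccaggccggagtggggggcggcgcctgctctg
Aqp1 (chr6:55336049-55336298, plus strand): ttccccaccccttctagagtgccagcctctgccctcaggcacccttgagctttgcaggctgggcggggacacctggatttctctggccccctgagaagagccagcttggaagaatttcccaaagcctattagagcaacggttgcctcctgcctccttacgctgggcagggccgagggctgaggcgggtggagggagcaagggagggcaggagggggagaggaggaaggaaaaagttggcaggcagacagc
A match is a description of these letters only, and its share among all promoters shows how common it is.

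Ttr encodes the carrier of thyroxine and of the retinol-binding protein in cerebrospinal fluid. In WT saline the Ttr level was 14.5, 2.06 and 109 CPM in libraries 1, 3 and 13. In WT ethanol it was 4919 CPM (4887 to 4952) in library 4 and 19.9 and 55.5 CPM in libraries 5 and 14. In KO saline it was 404, 23.9 and 2213 CPM in libraries 7, 8 and 9, and in KO ethanol 251 CPM in library 10, 0 in library 12 and 2193 CPM in library 18. One library each of WT ethanol, KO saline and KO ethanol stood far above the rest of its own group, and the ranges of all 4 groups overlapped. WT saline had a mean of 41.7 ± 58.2 CPM and WT ethanol of 1665 ± 2818 CPM, while KO saline had 880 ± 1170 CPM and KO ethanol 815 ± 1200 CPM (SD, n = 3 each), so the SD exceeded the mean in every group. Without library 4 the WT ethanol mean was 37.7 ± 25.2 CPM (SD, n = 2).

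**Figure D1:**
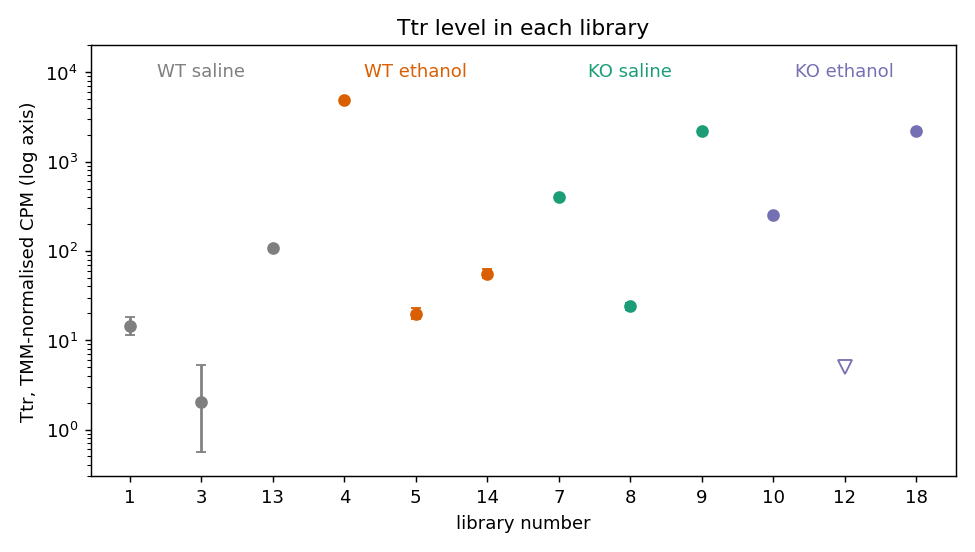
Ttr level in each of the 12 libraries, in TMM-normalised CPM on a log axis, with library numbers along the horizontal axis and groups in colours. Points carry exact 95% binomial intervals. The open triangle is the level of 3 counts, taken as the limit that 0 counts allow, in KO ethanol library 12 (5.015 CPM). WT ethanol library 4, KO saline library 9 and KO ethanol library 18 lie at or above 2193 CPM and all others at or below 404 CPM.

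The 0 in KO ethanol library 12 was the smallest library's value, and 0 of its 719735 counts allows a Ttr level of up to 5.015 CPM, with the limit of a count of 0 set at 3 counts. In the deposited RPKM, which are divided by transcript length and can be compared between genes, Ttr was the highest of all symbols in WT ethanol library 4, with 5371 RPKM, and ranked 6 in KO saline library 9 and 5 in KO ethanol library 18. Its rank was 153 and 286 in KO saline library 7 and KO ethanol library 10, and 1300 or lower in the remaining 7. Ttr alone took 0.565% of all counts in WT ethanol library 4, 0.249% in KO saline library 9 and 0.263% in KO ethanol library 18. The SD of its log2 CPM over the 12 libraries was 4.32, rank 1 among the 14739 symbols that passed the filter on low counts. Over the 11 libraries without WT ethanol library 4 it was 4.07, again rank 1. All 10 genes passed that filter, and for those at 0 in several libraries the pass rests on the libraries where they were high.

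Folr1, Kl and Prlr stand for the receptors at the surface of the choroid plexus cell. Folr1, the folate receptor that carries folate into the cerebrospinal fluid, was at 1.10, 1.03 and 7.13 CPM in WT saline libraries 1, 3 and 13. Its level was 19.6, 0.0927 and 0.176 CPM in WT ethanol libraries 4, 5 and 14, and 0.885, 0.351 and 14.7 CPM in KO saline libraries 7, 8 and 9. In KO ethanol it was 1.26, 0 and 7.10 CPM in libraries 10, 12 and 18. The 3 libraries with the most Ttr held 3 of the 4 highest Folr1 levels, but WT saline library 13, with 109 CPM of Ttr, held as much Folr1 as KO ethanol library 18.

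Kl, which is expressed in kidney and choroid plexus, encodes Klotho, the co-receptor for the hormone FGF23. It reached 13.9 CPM in WT ethanol library 4 and 10.6 CPM in KO saline library 9, and lay between 0 and 2.75 CPM in the other 10 libraries. KO ethanol library 18, next for Ttr, had 1.71 CPM of Kl and fell among those 10. Prlr, the prolactin receptor, was at 9.57 CPM in WT ethanol library 4, with WT ethanol library 14 next at 2.99 CPM, and it did not single out the other libraries rich in Ttr, at 2.54 and 1.40 CPM.

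Otx2, the homeodomain factor that keeps up the identity of choroid plexus epithelium, was at 2.94, 0 and 0.520 CPM in WT saline libraries 1, 3 and 13. It was at 22.8, 0.0927 and 0.703 CPM in WT ethanol libraries 4, 5 and 14, at 0.516, 0 and 2.90 CPM in KO saline libraries 7, 8 and 9, and at 0.158, 0 and 5.52 CPM in KO ethanol libraries 10, 12 and 18. Otx2 was thus 4.13 times higher in WT ethanol library 4 than in the next library, the widest such gap of the 10 genes. Otx2 is also expressed in the developing midbrain and thalamus, and thalamic markers summed to 1740 CPM in that same library. The part of such cells in its counts was not tested.

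Clic6, Slc4a5 and Aqp1 stand for the transporters and channels. Clic6, of the chloride intracellular channel family, was at 46.2 CPM in WT ethanol library 4, 13.4 CPM in KO saline library 9 and 7.55 CPM in KO ethanol library 18, and at 0 to 3.86 CPM in the other 9. Slc4a5, a sodium bicarbonate cotransporter, was at 13.5, 3.16 and 4.00 CPM in these 3 libraries and at 0 to 2.14 CPM in the others. Aqp1, the water channel of the apical membrane, was at 42.4, 12.0 and 7.36 CPM in them and at 0.514 to 6.83 CPM elsewhere. Clic6, Slc4a5 and Aqp1 all had their 3 highest values in the 3 libraries with the most Ttr.

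The secreted products other than Ttr separated the libraries less. Enpp2, the enzyme autotaxin that makes lysophosphatidic acid, was at 346 CPM in WT ethanol library 4, 247 CPM in KO saline library 9 and 136 CPM in KO ethanol library 18, and at 38.0 to 161 CPM in the other 9. Oligodendrocytes also make Enpp2, and WT saline library 1, at 161 CPM, stood above KO ethanol library 18. Sostdc1, a secreted inhibitor of BMP and Wnt signals, was at 27.6 CPM in WT ethanol library 4, 9.04 CPM in KO saline library 9 and 4.69 CPM in KO ethanol library 18, against 0.996 to 6.98 CPM elsewhere. The SD of log2 CPM of Enpp2 ranked 5236 and that of Sostdc1 2174 among the tested symbols, while those of Clic6, Folr1 and Otx2 ranked 62, 73 and 83. Without WT ethanol library 4 these ranks were 6908 and 4263 for Enpp2 and Sostdc1, and 305, 171 and 453 for Clic6, Folr1 and Otx2.

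**Figure D2:**
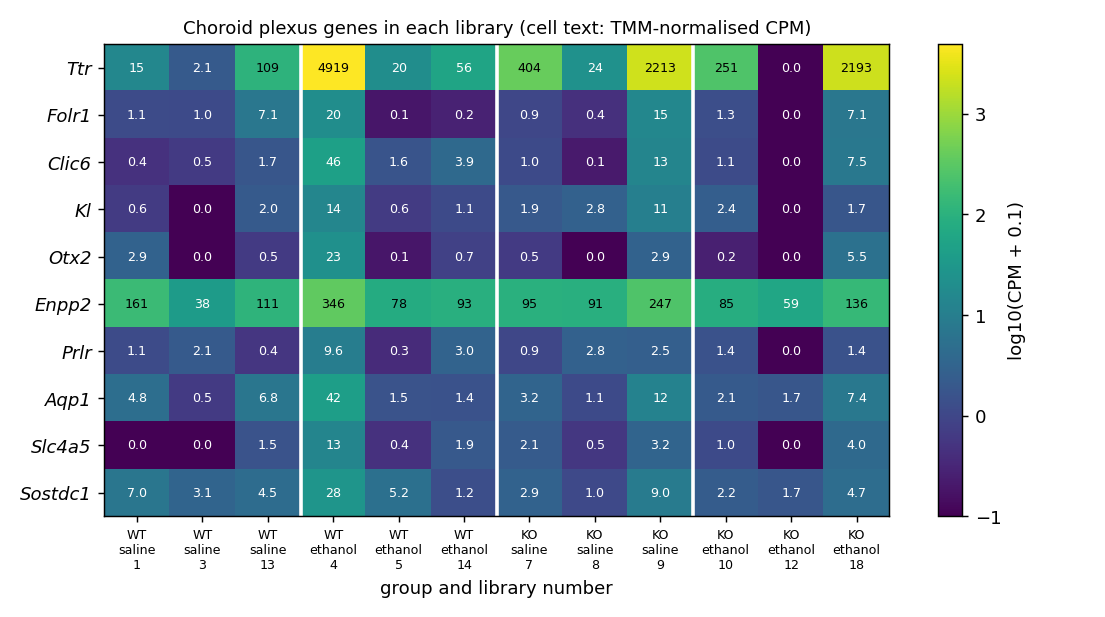
Levels of the 10 choroid plexus genes (rows) in the 12 libraries (columns, separated by group). Colour shows log10(CPM + 0.1) and the printed numbers are CPM. Each gene has its highest value in WT ethanol library 4, and KO saline library 9 and KO ethanol library 18 follow for Ttr, Clic6 and Aqp1.

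All 10 genes were highest in WT ethanol library 4, as were 15.9% of all tested symbols. KO saline library 9 came second for 7 of them, KO ethanol library 18 for Otx2 and Slc4a5, and WT ethanol library 14 for Prlr. At the other end, 7 of the 10 genes were at 0 in KO ethanol library 12 and 3 in WT saline library 3, the libraries with the fewest counts. The summed level of the 10 was 5461 CPM in WT ethanol library 4, 2529 in KO saline library 9, 2368 in KO ethanol library 18, 512 in KO saline library 7, 348 in KO ethanol library 10 and at most 244 CPM in the other 7. Without Ttr the sums were 541.5, 316 and 176 CPM in the first 3, and the last of these fell just below WT saline library 1, at 179 CPM, most of it Enpp2. In bulk tissue, fewer cells of a type and less RNA per cell cannot be told apart, so these sums are amounts of RNA and not cell numbers.

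Ttr made up 90.1% of the counts of the 10 genes in WT ethanol library 4, 87.5% in KO saline library 9 and 92.6% in KO ethanol library 18. It made up 4.35% in WT saline library 3 and 7.52% in WT saline library 1, where 80.4% and 83.3% of the counts of the 10 were Enpp2. Set against 1000 Ttr counts, Folr1 gave 3.98 counts (3.57 to 4.43, exact binomial interval) in WT ethanol library 4. It gave 6.66 (5.69 to 7.75) in KO saline library 9 and 3.24 (2.67 to 3.90) in KO ethanol library 18. In WT saline library 13 the same ratio was 65.7 (52.9 to 80.8). It was 2.19 (1.13 to 3.83) in KO saline library 7, 5.03 (2.87 to 8.18) in KO ethanol library 10 and 14.7 (5.37 to 32.3) in KO saline library 8, and it rested on 1 Folr1 count each in WT ethanol libraries 5 and 14. WT saline library 13 thus stood above all the other libraries for which the ratio was formed.

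Clic6 gave 9.39, 6.07 and 3.44 counts per 1000 Ttr counts in WT ethanol library 4, KO saline library 9 and KO ethanol library 18, with intervals that did not overlap. Otx2 gave 4.64 (4.20 to 5.12), 1.31 (0.900 to 1.84) and 2.52 (2.02 to 3.11) in these libraries. Kl gave 2.82 (2.48 to 3.20), 4.80 (3.98 to 5.73) and 0.781 (0.515 to 1.14). The makeup of the 10 genes therefore differed between these libraries by more than counting error. The order of the 3 libraries was the same for Folr1, Kl and Enpp2, highest in KO saline library 9, and differed from that for Clic6 and Otx2, highest in WT ethanol library 4.

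Enpp2 gave 70.3, 112 and 62.2 counts per 1000 Ttr counts in the same 3 libraries and 1025 to 3893 in WT saline library 13, WT ethanol libraries 5 and 14 and KO saline library 8, where Ttr was at or below 109 CPM. Enpp2 was therefore present at 38.0 CPM or more in every library, Ttr or not. KO saline library 7 and KO ethanol library 10 lay between these sets, with 235 and 339 Enpp2 counts per 1000 Ttr counts.

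**Figure D3:**
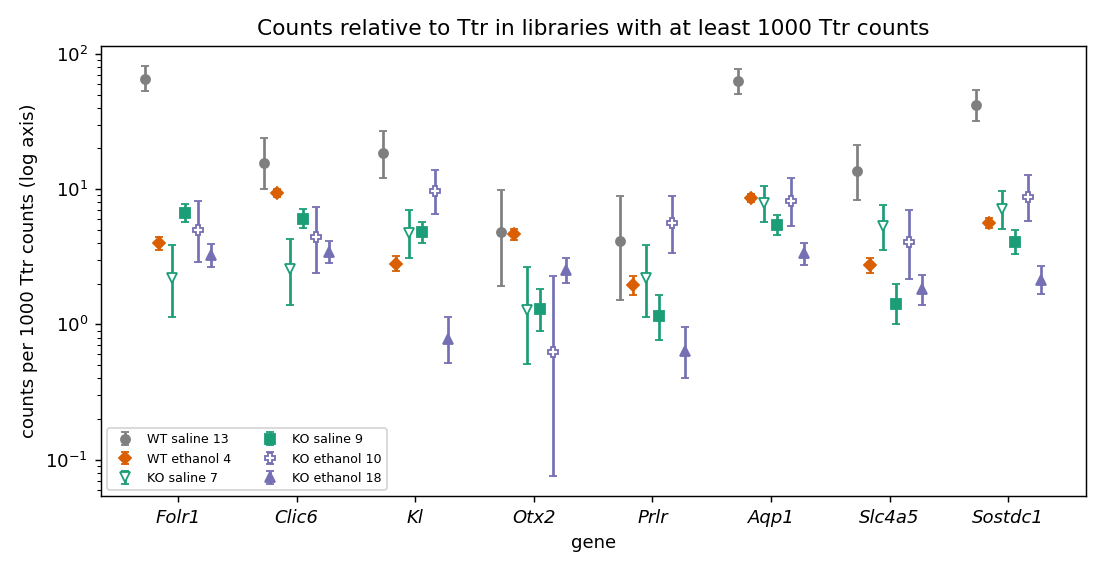
Counts of 8 choroid plexus genes per 1000 Ttr counts (log axis) in the 6 libraries with at least 1000 Ttr counts. Bars are exact 95% binomial intervals of each gene's count among the counts of that gene and Ttr together, rescaled to the ratio. WT saline library 13 has the highest point for every gene plotted except Prlr, and the 3 libraries richest in Ttr lie between 3.24 and 6.66 for Folr1.

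A list of 27 further genes known from choroid plexus was written beside the 10, and 26 of them passed the filter on low counts. Of these 26, 21 were highest in WT ethanol library 4, against 15.9% of all tested symbols. Their summed level was 962 CPM in WT ethanol library 4, 574 in KO saline library 9 and 405 in KO ethanol library 18, and 333 to 494 CPM in the other 9. By the highest mean RPKM, Slc29a4, a plasma membrane monoamine transporter, was at 44.1 CPM in WT ethanol library 4 and at 36.9 to 284 CPM in the others. It is made by neurons too, and its 284 CPM were part of the sum of 494 CPM in WT saline library 3. Vat1l, the next by that measure, was at 222 CPM against 48.9 to 142, and 1500015O10Rik, which encodes the secreted peptide augurin, at 74.2 CPM against 0 to 43.9. In KO saline library 9 and KO ethanol library 18, Slc29a4 was at 78.8 and 92.7 CPM and Vat1l at 118 and 48.9 CPM. There 1500015O10Rik was at 24.2 and 24.3 CPM. Chosen after their values were seen, Wfikkn2, a secreted protease inhibitor, was at 40.3 CPM against 0 to 3.17, and Car12, a carbonic anhydrase, at 18.1 CPM against 0 to 8.94. Also named after their values were seen, Calml4, Tmem72, F5, Krt18, Krt8 and Kcne2 were next highest in KO saline library 9 and then KO ethanol library 18. Calml4, for instance, was at 6.76 and 4.00 CPM there. Others on the list did not follow that order. Kcnj13 and Slc13a4 were instead highest in WT saline library 1, Cab39l in KO ethanol library 12 and Slc31a1 in WT saline library 13. Car14 and 1500015O10Rik were next highest in WT saline library 1, at 4.59 and 43.9 CPM. Slc12a2 was next highest in KO saline library 8 (73.6 CPM) and Abca4 in KO saline library 7 (8.11 CPM).

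The cells that line the ventricle beside the choroid plexus were also high in that library. The 16 ependymal genes on the list, most of them parts of motile cilia, summed to 375 CPM in WT ethanol library 4 and to 35.1 to 135 CPM in the others, and 13 of the 14 that were tested were highest there. Rarres2, which encodes chemerin, was at 29.6 CPM against 1.03 to 22.0, and Mia at 21.7 CPM against 0 to 10.8. KO ethanol library 18 had the next highest ependymal sum, 135 CPM, followed by KO ethanol library 10 at 123 CPM. KO saline library 9, at 88.2 CPM, lay near WT saline library 13 at 91.3 CPM. Ccdc39 alone, named after its values were seen, gave 55.7 and 60.6 CPM of the sums in KO ethanol libraries 18 and 10. It was at 25.5 CPM in KO saline library 9 and 4.83 CPM in WT saline library 13. The order of these sums thus rests in large part on that gene.

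KO saline library 9 and KO ethanol library 18, next after it for Ttr, had regional sums unlike those of WT ethanol library 4. Their cortex sums were 3066 and 2298 CPM and their thalamus sums 136 and 143 CPM, inside the range of the other 9 libraries for both lists (2175 to 4069 and 48.5 to 216 CPM). Hippocampal markers summed to 174.5 CPM in WT ethanol library 4, to 74.5 and 59.2 CPM in these libraries and to 39.7 to 75.2 CPM over all 11 others. Single genes of the thalamic list, named after their values were seen, were nevertheless high in KO ethanol library 18. It had the highest level outside WT ethanol library 4 for Zic1 (27.3 CPM), Prkcd (34.8 CPM) and Rgs16 (9.45 CPM). Tcf7l2 was at 18.1 CPM and Lhx9 at 6.15 CPM in it. Their medians were 4.46 and 0.649 CPM over the 11 libraries other than WT ethanol library 4. WT saline library 1 was higher than KO ethanol library 18 for both, at 29.2 and 10.5 CPM. Slc17a6 was at 42.3 CPM in KO ethanol library 18, below its median of 63.1 CPM over those 11 libraries. In KO saline library 9 Zic1 was at 8.42 CPM and Tcf7l2 at 3.68 CPM. The part of neighbouring tissue in the Ttr levels was not tested.

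**Figure D4:**
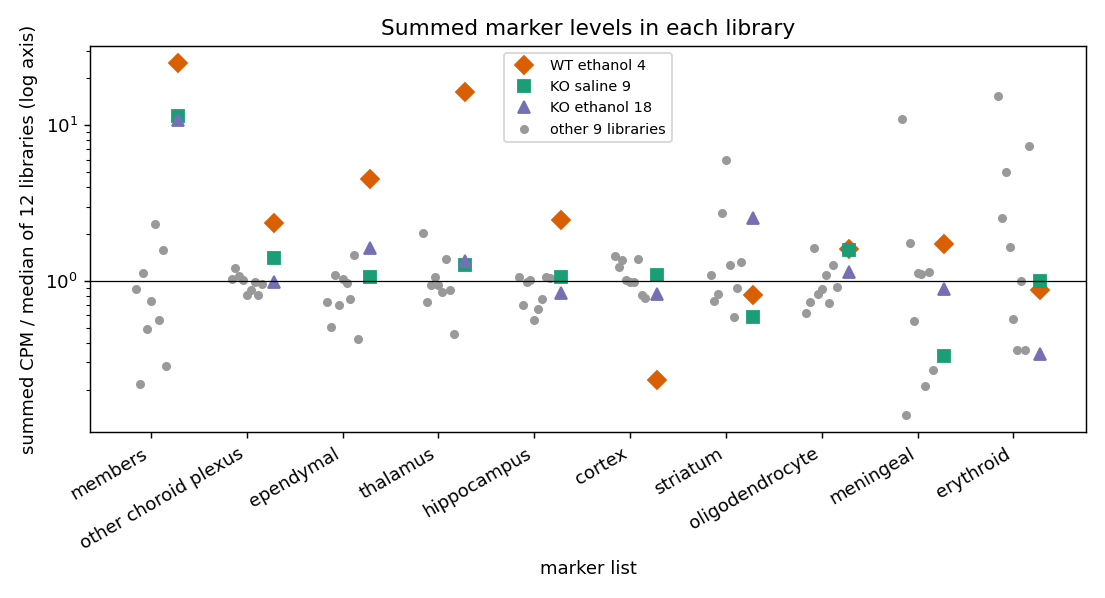
Summed CPM of each marker list in each library, divided by the median of the 12 libraries (log axis). Diamonds are WT ethanol library 4, squares KO saline library 9, triangles KO ethanol library 18 and grey dots the other 9. The diamond stands alone above the rest for the thalamus (1740 CPM) and alone below them for the cortex (646 CPM), while squares and triangles lie far above every grey dot for the 10 choroid plexus genes.

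The first comparison asks how ethanol changed expression in WT mice. With all libraries, the 10 genes had log2 fold changes above 0 in 10 of 10 cases, with a median of 2.18 against 0.06 over all genes tested. Ttr had a log2 fold change of 5.29 (SE 2.32), Clic6 of 4.08 (SE 1.57) and Slc4a5 of 2.92 (SE 1.30), and the smallest was 0.73 (SE 0.64) for Enpp2. Without WT ethanol library 4, 3 of 10 lay above 0 and the median was -0.41 against -0.04 over all genes. The value for Ttr then became -0.20 (SE 1.82), for Clic6 1.36 (SE 1.44) and for Folr1 -4.68 (SE 1.95), the last from 1 count each in WT ethanol libraries 5 and 14. No gene of the 10 had WT ethanol values that all lay above or all below those of WT saline, while 11.2% and 8.3% of tested genes did.

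**Figure D5:**
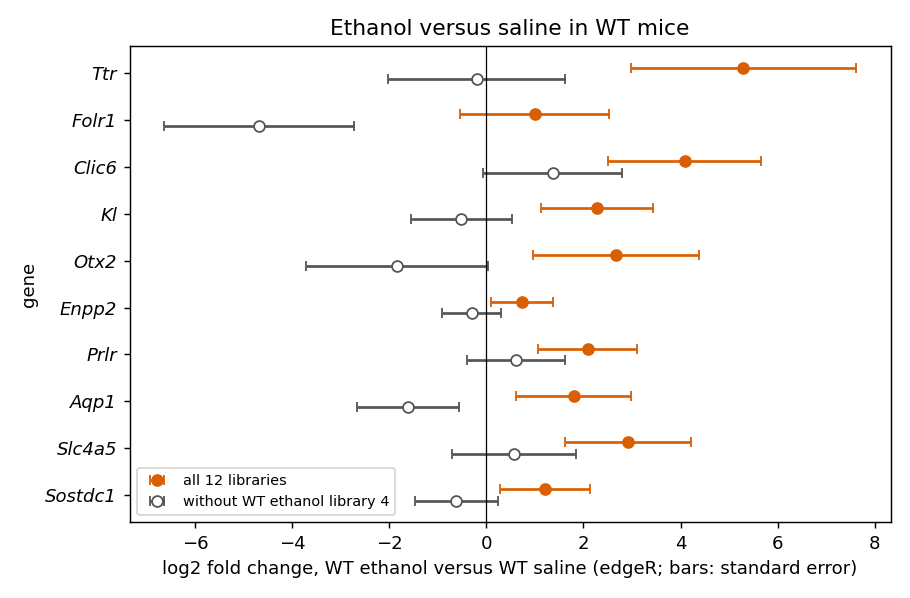
Log2 fold changes of the 10 choroid plexus genes in WT ethanol against WT saline libraries, from edgeR with standard errors as bars. Filled points use all 12 libraries and open points leave out WT ethanol library 4. All filled points lie above 0, and 7 of the 10 open points lie below 0.

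Of the 10 genes, 0 had an adjusted p under 0.05 in this comparison by edgeR's quasi-likelihood test, against 0.0746% of all tested genes. At an unadjusted p under 0.05, 3 were higher and 0 lower, against 9.99% of tested genes higher and 8.36% lower. Without WT ethanol library 4, 0 were higher and 1 lower, against 5.86% of tested genes higher and 3.65% lower. These counts rest on the contrast that chose the genes and are given for their size only. In the list of 26 further choroid plexus genes the median log2 fold change was 1.05 with all libraries and -0.47 without WT ethanol library 4. None of the 26 passed at an adjusted p under 0.05 by edgeR (DESeq2 called 2, Car12 and Trpm3), and at an unadjusted p 6 were higher (Kcne2, Car12, Ace, F5, Wfikkn2 and Trpm3) and 1 lower (Slc29a4). Without that library only Trpm3 was higher and 0 were lower at an unadjusted p. Of the lists around the choroid plexus, the ependymal one had a median of 2.01, which was -0.49 without that library, and the thalamic one of 2.68, which was 0.12.

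In KO mice, the comparison of ethanol with saline put 2 of the 10 genes above 0, with a median log2 fold change of -0.40 against 0.01 over all genes. Ttr had a log2 fold change of -0.11 (SE 1.93). Each arm held 1 library rich in Ttr, and the value moved to 1.92 without KO saline library 9 and to -2.75 without KO ethanol library 18. Likewise 8 of 10 genes lay above 0 without the former and 0 of 10 without the latter. By edgeR's test, 0 of the 10 and 0 of the 26 further genes passed at an adjusted p under 0.05, as did 0% of all genes. At an unadjusted p, 0 of the 10 and 1 of the 26 (Slc12a2, lower) passed, against 3.15% of all genes, 1.15% higher and 2.01% lower. Again 0 of 10 genes had groups that did not overlap, against 3.89% of tested genes higher and 6.87% lower.

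KO and WT mice were also compared under saline. Ttr had a log2 fold change of 4.37 (SE 2.22), which was 2.32 without KO saline library 9 and 6.65 without WT saline library 13. Of the 10 genes 8 lay above 0, with a median of 0.82 against 0.04 over all genes, and 4 of 10 did so without KO saline library 9, with a median of -0.51. Otx2 (-0.18, SE 1.73) and Sostdc1 (-0.22, SE 0.92) were the members below 0 with all libraries, and both lay above 0 (0.58 and 0.38) without TMM factors, which moved the median of all genes to 0.49. In the RPKM, 5 of the 10 lay above 0 at a pseudocount of 1. None of the 10 passed edgeR's test at an adjusted p under 0.05 (0.0543% of all genes did), 0 passed at an unadjusted p (19.6% did, 9.14% higher and 10.5% lower) and 0 had groups that did not overlap (12.9% higher and 10% lower did). Of the 26 further genes 0 passed at an adjusted p (DESeq2 called 1, Trpm3), and Car12 and Trpm3 were higher at an unadjusted p. WT ethanol library 4 is in neither group but enters the shared estimate of the spread. Without it 2 of the 10 were higher and 0 lower at an unadjusted p, against 8.99% and 10.8% of all genes. Of the 26, 3 were then higher (Car12, Kcne2 and Trpm3).

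WT saline library 1 differed from the other 5 saline libraries by blood and meningeal transcripts, at 2774 CPM of erythroid and 4044 CPM of meningeal markers against 65.0 to 900.4 and 50.9 to 642 CPM. Red blood cells make Aqp1 as well, and that library had 4.78 CPM of Aqp1 beside 14.5 CPM of Ttr. The part of these cells in the levels of the 10 genes was not tested.

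The interaction of genotype and treatment asks whether the ethanol effect differed between KO and WT mice. Its log2 fold changes were below 0 for 10 of 10 genes, with a median of -2.44 against -0.11 over all genes, and Ttr stood at -5.40 (SE 2.91). Without WT ethanol library 4 the value for Ttr became 0.12 (SE 2.42), 5 of 10 genes lay above 0 and the median was -0.08. None of the 10 passed edgeR's test at an adjusted p under 0.05, as 0% of all genes did. At an unadjusted p 2 were lower and 0 higher, against 7.67% of all genes lower, 7.5% higher and 15.2% in all. Without WT ethanol library 4, 0 were lower and 0 higher, against 4.9% and 5.82% of all genes. Of the 26 further genes 0 passed at an adjusted p by edgeR (DESeq2 called Trpm3), and 3 were lower at an unadjusted p (Kcne2, Slc12a2 and Trpm3), of which Slc12a2 and Trpm3 were so without that library. The 3 comparisons and the interaction share libraries, so their values for the 10 genes are not independent of each other.

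Over the 12 libraries, the log2 CPM of Slc4a5 followed that of Ttr with a Pearson r of 0.91, that of Kl with 0.89 and that of Clic6 with 0.85, against a median of 0.19 over all tested symbols. After leaving out KO ethanol library 12 and WT ethanol library 4, the libraries farthest from the median Ttr level, these became 0.90, 0.81 and 0.75. Folr1, Enpp2, Otx2 and Aqp1 had an r of 0.79, 0.78, 0.75 and 0.75, and of 0.66, 0.70, 0.64 and 0.78 without these libraries. By r over the 12 libraries, Slc4a5, Kl and Clic6 ranked 19, 50 and 152 among the tested symbols. Folr1, Enpp2, Otx2 and Aqp1 ranked 456, 582, 824 and 842. For Prlr the r of 0.62 became 0.06, and for Sostdc1 0.56 became 0.28, so both rested on the libraries left out. Outside the 10, the symbols most like Ttr were Sox2 (r 0.94), Homer3, Zfp687, Arap1, Hyal1, Sema3b, Dnaaf3, Cyp4f17, Armc4 and Elmo3 (r 0.92), each highest in WT ethanol library 4. Sox2, a transcription factor of neural progenitors, glia and ependymal cells, ran from 8.36 CPM to 78.5 CPM, and Dnaaf3 and Armc4 encode proteins needed to build the dynein arms of motile cilia. The r of these 10 stayed between 0.86 and 0.91 without those 2 libraries. The points share library depth and the tissue cut with each library, and no p is given.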

How the data were processed

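Stranded total RNA-Seq libraries were sequenced from 12 cortex samples. Reads were filtered at a q score of 30, aligned to mm10 with Bowtie2 in TopHat and quantified on RefSeq transcripts in Partek by the authors, and no version is given in the sources used here. The deposited estimated counts are unscaled and include fractions. They were summed per symbol (24452 symbols) and rounded to whole numbers. The deposited RPKM, which the authors computed in Partek, have nearly equal distributions in all libraries, as after quantile normalisation, and were used for ranks and alternatives. Groups and library numbers came from the sample labels, and no column was left unused.

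Symbols were filtered with edgeR's default expression filter (14739 kept), scaled by TMM and fitted with edgeR 4.0.16 (quasi-likelihood, 1 model over the 4 groups, Benjamini-Hochberg adjustment) in R 4.3.3. The fit was tested on simulated data. Alternatives were DESeq2 1.42.0, limma 3.58.1 on log2(RPKM + 1), other filters, no TMM factors and libraries left out. A CPM is a count per 1000000 of the TMM-scaled library size. Intervals are exact binomial intervals of rounded counts, 95%, and the limit for 0 counts is 3 counts. Library totals of 719735 to 17066392 set the precision.

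The members and gene lists were chosen with earlier results of these data known. Named beside the 10 members were the 3 further choroid plexus genes and the 2 genes of each other list (ependymal, meningeal, oligodendrocyte, erythroid, hippocampus, thalamus, striatum, cortex) with the highest mean RPKM, and the 10 symbols whose log2 CPM (prior count 2) correlated best with Ttr. Any list gene with an adjusted p under 0.05 was to be named as well. One named item is not reported here. Promoter sequences are from RefSeq (GRCm38.p6) and annotation is from GENCODE.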

Additional observations from a re-analysis of the deposited data

Results flagged for a closer look

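Trpm3, a cation channel of choroid plexus epithelium and neurons on the list of further choroid plexus genes, lay on opposite sides of saline after ethanol in the 2 genotypes. Its level was 15.4, 9.26 and 13.5 CPM in WT saline and 92.3, 28.4 and 26.7 CPM in WT ethanol libraries, so that every WT ethanol library lay above every WT saline library. It was 33.3, 42.6 and 50.1 CPM in KO saline and 22.7, 10.0 and 31.5 CPM in KO ethanol libraries, where every ethanol library lay below every saline one. The interaction term was -2.82 on the log2 scale (SE 0.72), with an adjusted p of 0.25 by edgeR, so it did not pass at 0.05. Without WT ethanol library 4 it was -1.95 with an adjusted p of 0.46, and DESeq2 gave -2.75 with an adjusted p of 0.033. Over the 20 settings run, edgeR, limma and DESeq2 together gave -3.30 to -1.36 and adjusted p from 0.033 to 0.51, of which 1 was under 0.05. This gene is 1 of 26 tested on its list. It was singled out because all ethanol libraries of each genotype lay on the same side of saline. Of all tested genes, 11.2% lay wholly higher with ethanol in WT mice and 6.87% wholly lower in KO mice. On the list of 26, 5 and 2 genes did so. The share that did both was not counted. The lowest KO ethanol value, 10.0 CPM, came from library 12, where 3 counts make 5.015 CPM.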

How the results depend on the processing

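No paired analysis was possible because the groups share no replicate number. Where a value moved, the cause was not tested unless the setting itself changes the number of libraries or genes. The number of genes called at an adjusted p under 0.05 was 11 for ethanol in WT mice, 0 in KO mice, 8 for KO against WT under saline and 0 for the interaction. Without TMM factors it was 2 in WT and 4 for KO against WT, with the median of all genes at 0.49, 0.49 and, for the interaction, -0.52. DESeq2 called 488, 2, 717 and 255 genes in the 4 comparisons, and 2 of the further choroid plexus genes in WT (Car12 and Trpm3), 1 for KO against WT and 1 for the interaction (Trpm3 in both), against 0 by edgeR in each. A filter of 1 count in any library gave 21 in WT and 7 for the interaction, and 10 counts in every library gave 2 for KO against WT and removed Ttr. On log2(RPKM + 1) limma called 0 in WT and 0 for KO against WT, and on log2(RPKM + 0.1) 2, 3 and, for the interaction, 1. Fits to the compared groups alone gave 0 in WT and 0 for KO against WT. Without WT saline library 3 and KO ethanol library 12, whose names open with another letter, 3220 genes were called in WT, 3782 for KO against WT and 10 for the interaction, with 1 further choroid plexus gene in WT (Trpm3). The Ttr value in KO mice then turned to 0.45. Leaving out WT ethanol library 4 as well, an alternative chosen after seeing the data, gave 1956, 4233 and 14 genes, 3 further choroid plexus genes for KO against WT (Car12 and Trpm3 higher, Slc13a4 lower), and Ttr values of -0.74 in WT, 0.50 in KO and 1.25 for the interaction. The summed level of the 10 genes in the highest library over the median library was 25.0 times, and 32.1 without TMM factors, 63.9 in RPKM, 5.06 without Ttr and 52.3 without Enpp2 and Aqp1. Leaving out single libraries gave 13.1 to 28.3 for that ratio, 0 to 1151 genes in WT, 0 to 2177 for KO against WT (1151 and 2177 without WT saline library 3), 0 in KO and 0 to 3 for the interaction, and 0 further choroid plexus genes in each. For Ttr it gave -0.20 to 7.57 in WT, -2.75 to 1.92 in KO, 2.32 to 6.65 for KO against WT and -7.94 to 0.12 for the interaction. Depth limits KO ethanol library 12, where up to 5.015 CPM of any gene could pass unseen.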

Other observations

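Other tissues around the cortex also varied between libraries, in an order unlike that of Ttr. Meningeal markers were highest in WT saline library 1, where Ptgds, which encodes the prostaglandin D synthase of the meninges, was at 2443 CPM against a median of 167 CPM over the 11 libraries other than WT ethanol library 4, and Igf2, a growth factor of meninges and choroid stroma, was at 603 CPM. In WT ethanol library 4 these were at 46.9 and 206 CPM. The same WT saline library had the highest levels of the beta-globin genes Hbb-b1 (1247 CPM) and Hbb-bs (689 CPM), whose reads are hard to divide between near-identical copies. In WT ethanol library 4 they were at 55.3 and 32.2 CPM.

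Striatal markers were highest in WT ethanol library 14, at a summed 1334 CPM, where Ppp1r1b, a phosphatase inhibitor of striatal projection neurons, was at 461 CPM and Tac1, which encodes substance P, at 125 CPM. WT ethanol library 4 had 26.2 and 25.9 CPM of these. Oligodendrocyte markers summed to 672 CPM in WT ethanol library 4, 669 CPM in KO saline library 9 and 688 CPM in WT saline library 13, with Mbp, a myelin protein, highest in KO ethanol library 10 (248 CPM) and Olig1, a factor of that lineage, highest in KO saline library 9 (144 CPM). Of the hippocampal list, Ociad2 was highest in WT saline library 1 (51.6 CPM), although the summed level of the list was highest in WT ethanol library 4.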
